A study of Mus musculus with 4 samples.

Results

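The circadian clock genes described here are 10 transcripts of the mouse hepatocyte line AML12, namely Nr1d1, Nr1d2, Dbp, Tef, Per1, Per2, Per3, Arntl, Cry1 and Bhlhe41, found by their gene names among the 31828 genes of the deposited table. They were chosen by their levels in 3D against 2D culture, so their differences between the cultures are given below as a description, with no p-value. All 10 were among the 14116 genes with a mean of at least 1 TPM (a transcript level scaled for transcript length and for the library's total) over the libraries, the genes on which the fit was made. AML12 is a single immortalised line made from the liver of a mouse carrying a transgene for transforming growth factor alpha, and both cultures shared that background. Every culture was first kept in medium with 10% serum, an insulin, transferrin and selenium supplement and 40 ng/mL dexamethasone for 48 h and then replated, on a dish for the 2D culture or embedded in Matrigel, a basement membrane gel, for the 3D culture. Hydroxyurea, which blocks DNA replication and holds cells at the G1/S boundary, was given at 1 mM in both, to 2D cells for 24 h from 50% confluence and to 3D cells for 36 h after 24 h of growth. Poly(A) RNA of 2 libraries per culture, 4 in all, was sequenced with a stranded kit. The labels number the libraries of a culture but do not say that they came from separate dishes, so the p-values below measure only the spread between these libraries, which may be technical. Growth in 3D and the longer hydroxyurea treatment differed together and cannot be told apart. The hours of growth before the drug are given for 3D only, so whether the collection time also differed is unknown. Such a difference could not be told apart from the other 2 either. No culture without hydroxyurea and no series of time points was among these libraries.

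The circadian clock is a loop of transcription and repression that runs in nearly every cell and takes about a day. BMAL1 (the product of Arntl) and CLOCK bind E-box sequences and activate the Per and Cry genes, whose products return to repress them, as well as Nr1d1 and Nr1d2, which encode REV-ERB alpha and REV-ERB beta, receptors that repress Arntl and are opposed at the same sites by the ROR receptors. DBP and TEF, activators of the PAR bZIP family, and their antagonist NFIL3 act on D-boxes downstream, while BHLHE40 and BHLHE41 compete for E-boxes; in liver this network times bile acid, lipid, glucose and drug metabolism, and glucocorticoids and serum reset it in cultured cells. Each culture was collected once, so a shift in the phase of a rhythm and a change in its mean level cannot be told apart in these data, and neither can more cells expressing a gene and more RNA per cell.

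The libraries were alike in depth of detection, with 13891 to 14256 genes at 1 TPM or more in each, and log2 levels correlated at 0.991 within 2D, 0.992 within 3D and 0.951 to 0.952 between the cultures. TPM keeps no read depth, so no counting error can be given. Mitochondrial transcripts took 5.37% to 5.44% of the TPM in 2D against 6.51% to 6.78% in 3D. Of the markers that bear on the hepatocyte label, Hnf4a, a liver transcription factor, was present at 56.7 and 57.6 TPM in 2D against 164 and 156 TPM in 3D, whereas albumin (Alb), the main hepatocyte secretory product, was at only 0.819 and 1.20 TPM in 2D against 12.7 and 10.0 TPM in 3D. All 7 hepatocyte markers reached 1 TPM, and their sum, mostly the keratins Krt8 and Krt18, was 9412 to 9614 TPM in 2D against 5574 to 5655 TPM in 3D. The lower sum in 3D was that of the keratins, with log2 fold changes of -0.82 and -0.91. Of the 7 markers, 5 rose and only these 2 fell, with a median log2 fold change of 1.47. The biliary markers, led by Krt19, Krt7 and Spp1, summed to 2294 to 2402 TPM in 2D against 2269 to 2357 TPM in 3D, with the defining Epcam and Cftr under 1 TPM in every library. Within that list the 4 tested genes went in opposite directions, 2 rising and 2 falling, with Spp1 at 166 and 138 TPM in 2D and 764 and 786 in 3D while Krt7 and Krt19 fell (limma log2 fold changes of 2.35, -0.65 and -0.49). The fibroblast and stellate markers summed to 35.0 to 37.9 TPM in 2D and 18.8 to 19.9 TPM in 3D, nearly all of it Des, which fell by 0.91 in log2 units (limma adjusted p = 0.00122). The remaining 6 of 7 in the table were under 1 TPM, as were 5 of 5 endothelial markers and the leukocyte markers Ptprc, Adgre1 and Clec4f. The leukocyte list summed to 134 TPM in both 2D libraries and 293 to 297 TPM in 3D, carried by Cd14 and Cd68. Of its 3 tested genes, Cd14 rose (log2 fold change 1.25), Cd68 did not pass the limma test (0.31) and Cd3e fell (-0.94). The endothelial list summed to 0.878 to 1.54 TPM in 2D and 1.64 to 2.13 TPM in 3D. The part of hepatocyte state and of cell makeup in the clock gene values was not tested.

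The sum of the 10 clock genes was 250 and 271 TPM in the 2D libraries and 481 and 459 TPM in the 3D libraries, or 260 ± 15.3 against 470 ± 15.1 (SD, n = 2). The 3D libraries lay well above those of 2D. Most of the difference lay in Nr1d1, whose share of the summed TPM was 9.14% ± 0.0991 in 2D and 34.0% ± 0.598 in 3D, while the shares of Tef (34.1% to 24.8%) and Per1 (25.0% to 11.8%) were smaller in 3D. The stacked bars by library show this redistribution.

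**Figure D1:**
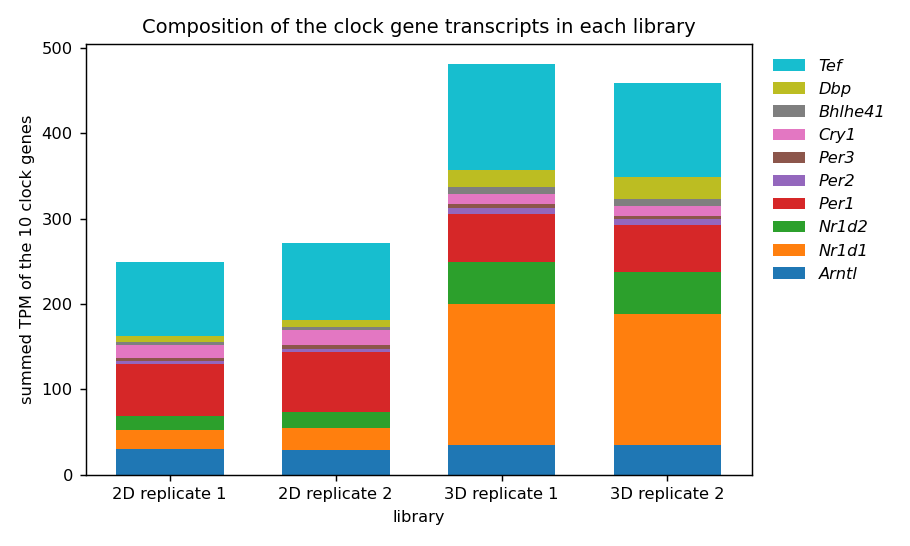
Stacked bars of the TPM of the 10 clock genes in each of the 4 libraries (horizontal axis), coloured by gene, on a linear vertical axis of summed TPM from 0. The 3D bars reach 481 and 459 TPM against 250 and 271 TPM in 2D, and the Nr1d1 segment is the one that differs most in height.

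In TPM, the order of the levels in 2D ran Tef, Per1, Arntl, Nr1d1, Nr1d2, Cry1, Dbp, Per2, Per3 and Bhlhe41. The ranges of the replicates overlapped only between the neighbours Nr1d2 and Cry1 and between Per2 and Per3. In 3D the order was Nr1d1, Tef, Per1, Nr1d2, Arntl, Dbp, Cry1, Bhlhe41, Per2 and Per3, with no overlap between neighbours. Nr1d1 thus stood in the fourth place in 2D and in the first in 3D. Seen against all tested genes, the mean level of Nr1d1 exceeded 52.2% of them in 2D and 92.6% in 3D, that of Dbp 29.9% and 51.8%, and that of Cry1 43.4% and 36.6%.

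**Figure D2:**
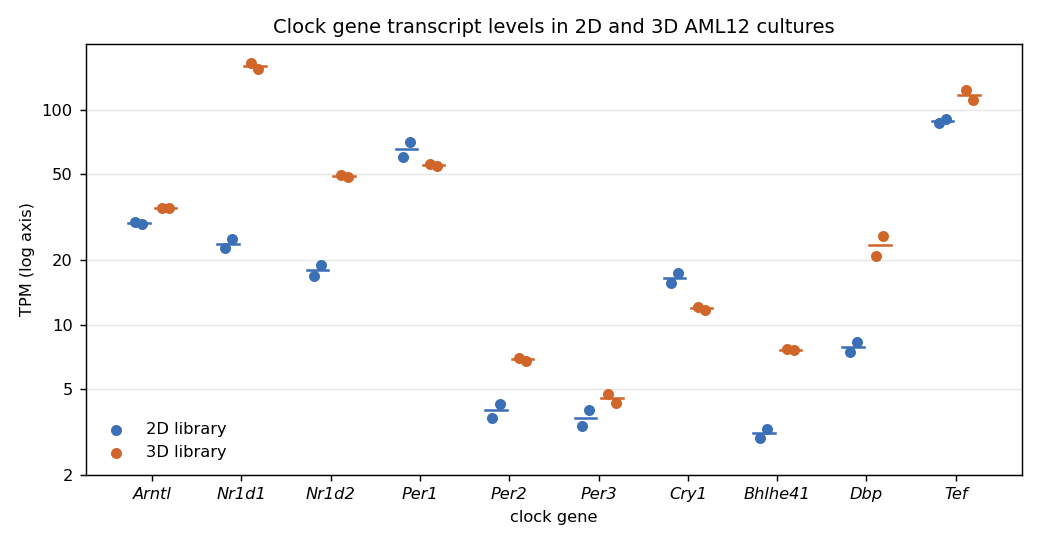
TPM (log axis) of each clock gene in the 2 libraries of each culture, as points, with the mean as a line, blue for 2D and orange for 3D. The 3D points lie above the 2D points for 8 genes, furthest for Nr1d1, and below them for Per1 and Cry1, and no gene has overlapping groups.

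For all 10 genes both libraries of one culture lay above both of the other, 8 of them higher in 3D and 2 lower, a separation also seen in 77.5% of all tested genes. In the limma fit of log2(TPM + 1) over all tested genes, 8 of the 10 had an adjusted p under 0.05, where 50.5% of all tested genes did. Of these, 7 were higher in 3D (23.4% of all tested genes) and 1 lower (27.1%), and 4 had an absolute log2 fold change over 1 (8.2% of all tested genes). The genes had been selected on this very contrast, so nothing is read from these counts. Their log2 fold changes had a median of 0.53 against -0.04 over all tested genes, and a median absolute size of 0.55 against 0.31. The differences between the replicates of a culture, on the log2(TPM + 1) scale, ran from 0.0320 (Arntl) to 0.227 (Per1) with a median of 0.142 in 2D, and from 0.00351 (Arntl) to 0.289 (Dbp) with a median of 0.0414 in 3D.

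**Figure D3:**
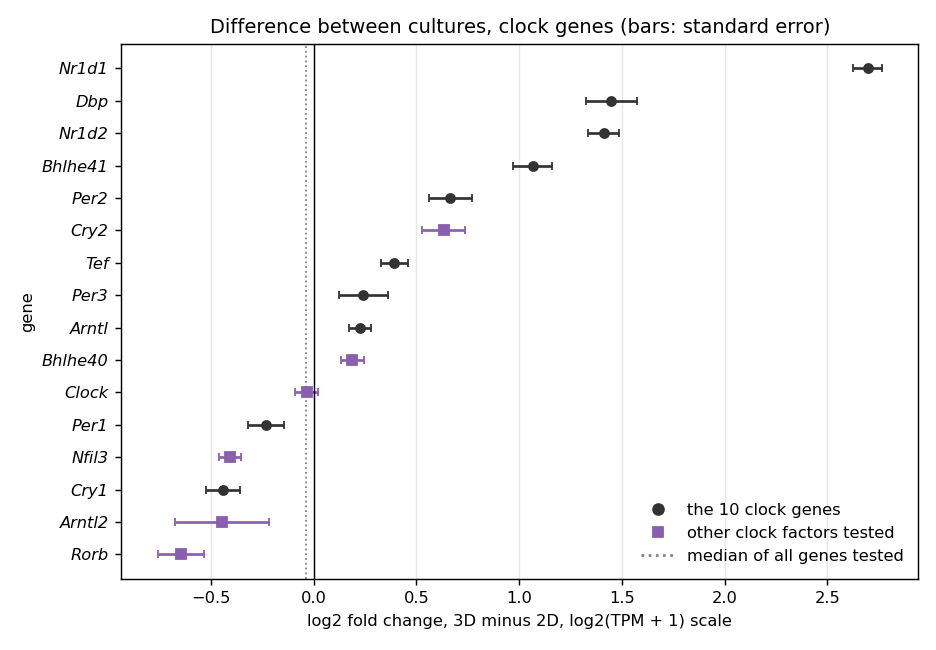
Log2 fold change (3D minus 2D, on the log2(TPM + 1) scale, horizontal axis) of the 10 clock genes (circles) and of 6 other clock factors that were tested (squares), with bars of 1 standard error from limma. Nr1d1 stands at 2.70, 3 genes lie between 1 and 1.5, and Rorb, Arntl2, Cry1 and Nfil3 lie below -0.4.

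Promoter sequences of the clock genes were searched for the letters of the elements through which clock proteins act, and the stretches that held such letters outside annotated exons are shown so that the letters can be read in their place. RefSeq windows of 250 bases before to 50 bases after the start site (build GRCm38.p6) were matched by symbol for 9 of the 10 genes, 12 windows in all. Both strands were searched for the E-box CACGTG, the E'-box CACGTT, the D-boxes TTATGTAA and TTACGTAA, the ROR element cores TAGGTCA and TGGGTCA, to which REV-ERB also binds, and the CRE TGACGTCA, the cAMP response element. The part of the 250 bases before the start that lies outside exons is printed 5′ to 3′ on the gene's strand, and capitals mark the matched letters, with an E'-box on the other strand reading AACGTG.
Nr1d1 (chr11:98775378-98775627, minus strand): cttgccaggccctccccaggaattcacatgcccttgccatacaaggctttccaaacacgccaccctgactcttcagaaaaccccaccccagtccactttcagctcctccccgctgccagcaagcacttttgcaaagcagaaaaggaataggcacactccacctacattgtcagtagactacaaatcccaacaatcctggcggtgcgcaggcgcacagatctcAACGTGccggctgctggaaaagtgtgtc
Cry1 (chr10:85185065-85185304, minus strand): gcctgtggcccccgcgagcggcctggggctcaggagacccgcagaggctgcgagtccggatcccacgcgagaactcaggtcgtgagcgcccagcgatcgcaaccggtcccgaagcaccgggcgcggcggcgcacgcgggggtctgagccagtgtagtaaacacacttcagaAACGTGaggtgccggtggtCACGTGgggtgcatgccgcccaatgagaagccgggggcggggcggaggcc
Per1 (chr11:69098699-69098947, plus strand): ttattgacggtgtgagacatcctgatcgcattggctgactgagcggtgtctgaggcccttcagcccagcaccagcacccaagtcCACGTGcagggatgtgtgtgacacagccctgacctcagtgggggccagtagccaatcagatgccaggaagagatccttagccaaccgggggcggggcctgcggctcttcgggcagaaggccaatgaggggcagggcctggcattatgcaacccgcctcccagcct
Bhlhe41 (chr6:145865559-145865670, minus strand): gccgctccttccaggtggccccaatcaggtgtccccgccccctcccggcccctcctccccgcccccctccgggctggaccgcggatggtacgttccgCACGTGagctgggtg
Tef (chr15:81811164-81811413, plus strand): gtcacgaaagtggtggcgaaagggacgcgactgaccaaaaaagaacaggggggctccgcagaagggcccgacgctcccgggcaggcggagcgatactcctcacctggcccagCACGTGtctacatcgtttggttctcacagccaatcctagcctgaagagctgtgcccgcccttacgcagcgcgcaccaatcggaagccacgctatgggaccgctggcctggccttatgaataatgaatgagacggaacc
Per3 (chr4:151044666-151044915, minus strand): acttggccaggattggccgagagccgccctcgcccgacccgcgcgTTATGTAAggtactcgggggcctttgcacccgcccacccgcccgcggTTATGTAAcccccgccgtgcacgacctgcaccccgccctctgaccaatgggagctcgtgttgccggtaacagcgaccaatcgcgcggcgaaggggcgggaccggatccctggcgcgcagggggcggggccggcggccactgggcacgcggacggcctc

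Before the start site, the E-box letters were found in 4 of 9 clock genes (Bhlhe41, Cry1, Per1 and Tef, for Tef at both start sites, the first match in an exon) and in 6.86% of the 27025 genes with windows. The E'-box letters stood in 2 (Cry1 and Nr1d1) against 4.50% of all genes, and a D-box stood in 1 (Per3, with 2 matches) against 1.10%. Neither a ROR element core nor a CRE was among these letters for any of the 9, against 6.15% and 1.77% of all genes. In the whole 300-base window a ROR element core appeared in 1 gene, Arntl, at bases 30 to 36 after a start site counted as 0, in an exon, where 7.35% of all genes had one. The matches of Cry1, an E'-box at -79 to -74 and an E-box at -60 to -55, lay closest together, and no match overlapped another. Of the genes with an E-box, Bhlhe41 and Tef were higher in 3D and Per1 and Cry1 lower, for Per1 with a gap smaller than that within 2D. The part of these letters in the differences was not tested. A match is a description of the sequence and not a bound site, and no binding was measured in these libraries.

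**Figure D4:**
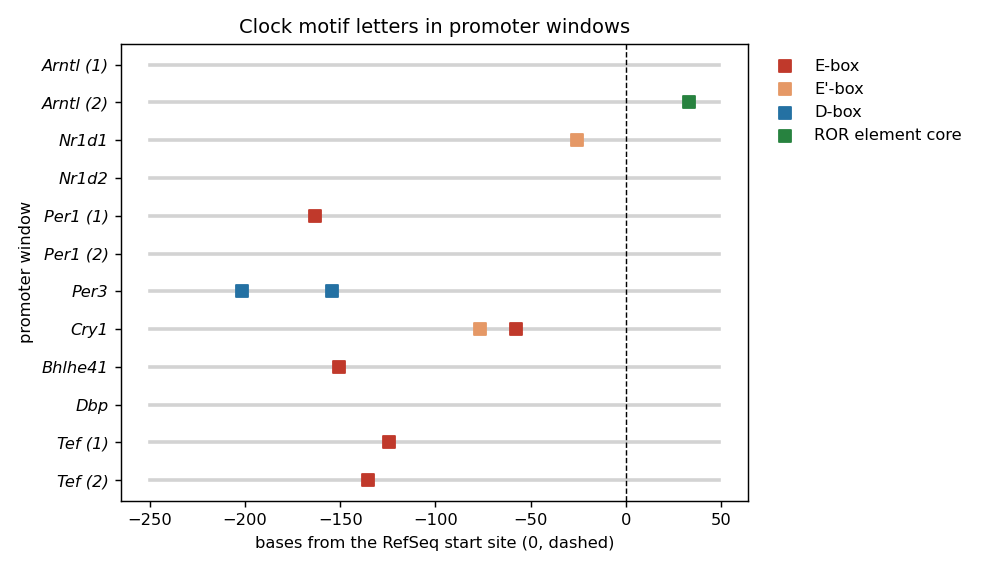
Positions of the matched letters (squares, coloured by motif) in the 12 promoter windows of 9 clock genes (grey lines, 1 per RefSeq start site, numbered where a gene has 2), in bases from the start site at 0. The matches lie before the start in every case but the ROR element core of the second Arntl window.

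Both REV-ERB genes were higher in 3D, and Nr1d1 held the largest difference of the 10. Nr1d1 (ENSMUSG00000020889, chr11:98767932-98775333, minus strand, GRCm38 as for all positions here) encodes REV-ERB alpha and stood at 22.6 and 25.0 TPM in 2D against 165 and 154 TPM in 3D. Both 3D libraries lay far above both 2D libraries, 6.71 times as high on average, with a log2 fold change of 2.70 (SE 0.07), exceeded by 0.276% of the tested genes. Its paralogue Nr1d2 (ENSMUSG00000021775, chr14:18204054-18239127, minus strand), which encodes REV-ERB beta, was at 16.8 and 18.9 TPM in 2D against 49.5 and 48.8 TPM in 3D. Both 3D libraries of Nr1d2 were again higher than its 2D pair. In TPM they were also closer to each other than the 2D libraries were, and the log2 fold change was 1.41 (SE 0.08). The paralogues differed in size, since the ratio of Nr1d1 to Nr1d2 TPM was 1.35 and 1.32 in 2D and 3.34 and 3.16 in 3D. Together they made up 41.7 ± 3.13 TPM in 2D against 209 ± 8.39 TPM in 3D (SD, n = 2), a ratio of 5.01.

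The PAR bZIP genes, the D-box activators, were also higher in 3D. Dbp (ENSMUSG00000059824, chr7:45705088-45710203, plus strand), a direct output of the clock in liver, was at 7.48 and 8.28 TPM in 2D against 20.9 and 25.8 TPM in 3D, a log2 fold change of 1.45 (SE 0.12). Its 3D libraries lay well above those of 2D although, on the log2(TPM + 1) scale, they differed from each other more than those of any other clock gene here. Tef (ENSMUSG00000022389, chr15:81802421-81826863, plus strand) had the highest level of the 10 in 2D, at 87.0 and 90.3 TPM, and reached 123 and 111 TPM in 3D, a log2 fold change of 0.39 (SE 0.07). The groups of Tef did not overlap, but its 3D libraries were only 1.32 times as high on average, so the ratio of Dbp to Tef was 0.0860 and 0.0916 in 2D and 0.170 and 0.233 in 3D. Hlf, the remaining PAR bZIP gene, was under 0.06 TPM in every library and was not tested. Nfil3, the repressor of the same D-boxes, was not among the 10 and fell from 43.3 ± 1.32 to 32.4 ± 0.349 TPM (SD, n = 2), a log2 fold change of -0.41 (SE 0.05) with a limma adjusted p = 0.00452. The ratio of Dbp to Nfil3 was 0.177 and 0.187 in 2D and 0.651 and 0.790 in 3D.

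The Per genes, which encode the PERIOD repressors, did not share a direction. Per1 (ENSMUSG00000020893, chr11:69095217-69109960, plus strand), which also answers quickly to glucocorticoids and cAMP, was at 60.1 and 70.5 TPM in 2D against 55.7 and 54.9 TPM in 3D. Its 3D libraries were below both 2D libraries, yet the gap to the lower 2D library was smaller than the gap within 2D, and the log2 fold change was -0.23 (SE 0.09). Per2 (ENSMUSG00000055866, chr1:91415982-91459324, minus strand) was at 3.68 and 4.29 TPM in 2D against 7.02 and 6.77 TPM in 3D, a log2 fold change of 0.67 (SE 0.11). Here the 3D libraries were clearly the higher pair. For Per3 (ENSMUSG00000028957, chr4:151003652-151044665, minus strand) the values were 3.38 and 4.01 TPM in 2D against 4.76 and 4.32 TPM in 3D, a log2 fold change of 0.24 (SE 0.12), and the nearest libraries of the cultures lay closer to each other than the replicates did. Since Per1 made up most of the Per transcripts, their sum was 73.0 ± 8.25 TPM in 2D against 66.7 ± 1.03 TPM in 3D (SD, n = 2), while the ratio of Per1 to Per2 was 16.3 and 16.4 in 2D and 7.93 and 8.12 in 3D.

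Cry1 and Cry2 encode the cryptochromes, the partners of the PERIOD proteins, and differed between the cultures in opposite directions. Cry1 (ENSMUSG00000020038, chr10:85131700-85185064, minus strand) was at 15.6 and 17.4 TPM in 2D against 12.0 and 11.7 TPM in 3D, a log2 fold change of -0.44 (SE 0.08). Both 3D libraries were below both 2D libraries. Cry2, which was not among the 10, rose from 2.87 ± 0.188 to 5.00 ± 0.214 TPM (SD, n = 2), a log2 fold change of 0.63 (SE 0.10) with a limma adjusted p = 0.00813, which came to 0.0513 without 3D replicate 1. Cry1 remained the more abundant per length, with a ratio of Cry1 to Cry2 of 5.20 and 6.36 in 2D and 2.34 and 2.42 in 3D, and their sum was 19.4 ± 1.08 and 16.9 ± 0.442 TPM (SD, n = 2).

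Bhlhe41 (ENSMUSG00000030256, chr6:145858243-145865558, minus strand), which encodes the E-box repressor DEC2, was the lowest of the 10 in 2D at 2.98 and 3.25 TPM and stood at 7.66 and 7.58 TPM in 3D. The 3D libraries were nearly equal and 2.44 times as high as the 2D libraries on average, a log2 fold change of 1.07 (SE 0.09). Its paralogue Bhlhe40 (DEC1), not among the 10, was far more abundant at 96.6 ± 5.54 TPM in 2D against 110 ± 1.13 TPM in 3D (SD, n = 2). The log2 fold change of Bhlhe40 was 0.19 (SE 0.06) with a limma adjusted p = 0.0442, and in 6 of 13 alternative fits, including those without 2D replicate 1, 3D replicate 1 or 3D replicate 2, the adjusted p lay between 0.075 and 0.169. The ratio of Bhlhe40 to Bhlhe41 was 31.1 and 30.9 in 2D and 14.5 and 14.4 in 3D.

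On the activating side the differences were small. Arntl (ENSMUSG00000055116, chr7:113207465-113314126, plus strand), which encodes BMAL1, was at 30.0 and 29.3 TPM in 2D against 34.8 and 34.7 TPM in 3D. On the log2(TPM + 1) scale the replicates of Arntl lay closest together of the 10 genes, so the groups were separate although the log2 fold change was only 0.22 (SE 0.05). Clock, its partner and not among the 10, had 41.8 ± 1.35 TPM in 2D against 40.8 ± 0.794 TPM in 3D (SD, n = 2), a log2 fold change of -0.03 with a 95% confidence interval of -0.18 to 0.11 and a limma adjusted p = 0.624. The alternative partners were scarce: Arntl2 had 1.54 ± 0.193 and 0.895 ± 0.519 TPM (SD, n = 2; log2 fold change -0.45, limma adjusted p = 0.17), and Npas2 was under 0.08 TPM in every library. Set against its target, REV-ERB alpha transcript changed places with BMAL1 transcript: the ratio of Nr1d1 to Arntl was 0.756 and 0.853 in 2D and 4.75 and 4.44 in 3D.

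Of the ROR receptors, activators at the sites where REV-ERB represses, Rorb fell from 2.85 ± 0.0703 to 1.46 ± 0.0523 TPM (SD, n = 2), with a log2 fold change of -0.65 (SE 0.11) and a limma adjusted p = 0.00967, which came to 0.0505 without 3D replicate 2. Rora was under 0.08 TPM in every library.

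Taking the other clock transcription factors and repressors as a list of 11 genes, 7 were tested, of which 3 rose, Cry2 and Bhlhe40 among them, 2 fell (Rorb and Nfil3) and 2 did not pass the test (Clock and Arntl2), so that 71.4% of the 7 passed, where 50.5% of all tested genes did. Their median log2 fold change was -0.03, against 0.53 for the 10 clock genes and -0.04 over all tested genes. Ciart, a repressor of the loop, was under 1 TPM in every library and not tested, at 0.219 and 0.272 TPM in 2D against 0.915 and 0.913 TPM in 3D.

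The kinases and ubiquitin ligases that set the stability of the PERIOD, cryptochrome and REV-ERB proteins differed less. Of 16 listed, 15 were tested, and 1 rose: Prkaa1, which encodes the catalytic subunit of AMP-activated kinase that phosphorylates cryptochromes, went from 49.5 ± 0.0879 to 58.4 ± 0.0599 TPM (SD, n = 2), with a log2 fold change of 0.23 (SE 0.05) and a limma adjusted p = 0.014, which came to 0.0775 and 0.076 without 3D replicate 1 and 3D replicate 2. The most abundant were Csnk2b, the regulatory subunit of casein kinase 2 (250 ± 65.3 TPM in 2D against 220 ± 44.6 TPM in 3D; SD, n = 2), and Csnk1d, casein kinase 1 delta, which phosphorylates PERIOD proteins (173 ± 7.40 and 172 ± 8.06 TPM). Neither passed the test, with log2 fold changes of -0.17 (95% confidence interval -0.77 to 0.42) and -0.0032 (-0.15 to 0.14), and the sign of both turned in some of the alternative fits. The share of the list with an adjusted p under 0.05 was 6.67%, against 50.5% of all tested genes.

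None of the 6 genes of the corepressor complex through which REV-ERB silences its targets passed the limma test. Of all tested genes 50.5% did. An unadjusted limma p under 0.05 was found for 1 of the 6, and for 8133 of the 14116 tested genes. Ncor1 had 113 ± 10.6 and 110 ± 5.19 TPM (SD, n = 2), with a log2 fold change of -0.03 (95% confidence interval -0.24 to 0.18), whose sign turned without 2D replicate 2 or 3D replicate 2.

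Genes known as outputs of the liver clock were mixed. Of 18 listed, 12 were tested, and 4 rose and 3 fell, with a median log2 fold change of 0.06. These 7 were 58.3% of those tested, near the 50.5% of all tested genes. Ppargc1a, a coactivator of RORs and of gluconeogenic genes, rose from 3.12 ± 0.329 to 9.66 ± 0.410 TPM (SD, n = 2; log2 fold change 1.37, limma adjusted p = 0.00102). Klf10, a zinc finger factor linked to glucose metabolism, rose by 0.71 in log2 units (limma adjusted p = 0.00175), and Nampt, the rate-limiting enzyme of NAD salvage, by 0.37 (limma adjusted p = 0.0134, or 0.0743 without 3D replicate 1). In the other direction, Noct, which encodes the rhythmic phosphatase nocturnin, fell from 16.6 ± 2.88 to 7.45 ± 0.863 TPM (SD, n = 2; log2 fold change -1.05, limma adjusted p = 0.00529). Por, the electron donor of cytochrome P450 enzymes, fell by 0.25 in log2 units (limma adjusted p = 0.00478, or 0.0508 without 3D replicate 2).

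Dexamethasone and serum, which reset the clock of cultured cells, were in the medium in which every culture was kept before replating. Genes known to respond to them were therefore read beside the clock genes. Of 16 glucocorticoid response genes 13 were tested, of which 6 rose and 2 fell, with a median log2 fold change of 0.20. The 8 genes past the threshold were 61.5% of those tested, near the 50.5% of all tested genes. Sgk1, a kinase induced by the glucocorticoid receptor, had a mean TPM 2.45 times as high in 3D as in 2D (log2 fold change 1.28, SE 0.04, limma adjusted p = 0.000241). Angptl4, an inhibitor of lipoprotein lipase (0.73, limma adjusted p = 0.00304), and Klf9, a zinc finger repressor (0.65, limma adjusted p = 0.000682), were the next highest. The metallothionein gene Mt2 fell by 0.88 (limma adjusted p = 0.000317) and the phosphatase gene Dusp1 by 0.34 (limma adjusted p = 0.00252). Ddit4, an inhibitor of mTORC1 signalling and 1 of the most abundant on the list, rose by 0.21 (limma adjusted p = 0.00938, or 0.0644 and 0.0764 without 3D replicate 1 and 3D replicate 2).

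Of 11 early genes of the serum and cAMP response, all tested, 1 rose and 5 fell, with a median log2 fold change of -0.21. The share past the threshold, 54.5%, was near the 50.5% of all tested genes. The largest decreases were those of the transcription factor genes Nr4a1 (-0.64, limma adjusted p = 0.00143), Egr1 (-0.59, limma adjusted p = 0.00266) and Junb (-0.54, limma adjusted p = 0.000704). Ier2 rose by 0.20 (limma adjusted p = 0.0233), and Atf3, a stress-induced factor at 421 ± 59.0 TPM in 2D against 297 ± 39.0 TPM in 3D (SD, n = 2), fell by 0.50 (limma adjusted p = 0.0337). Both of these calls were lost in many of the 13 alternative fits, in 6 for Ier2 and 7 for Atf3, including those without 3D replicate 1. The log2 fold change of Per1, a clock gene that also responds to these signals, was -0.23 (SE 0.09), as given above. The part of glucocorticoid or serum signalling in the clock gene values was not tested.

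**Figure D5:**
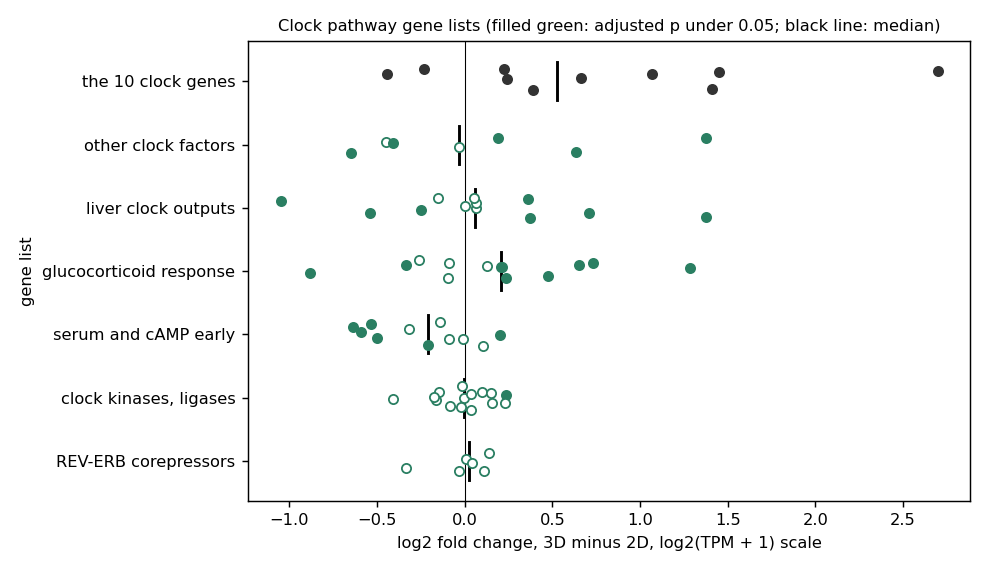
Log2 fold change (3D minus 2D, log2(TPM + 1) scale) of every tested gene of 7 gene lists, 1 point per gene, with the median of each list as a black line; green points are filled where the limma adjusted p was under 0.05, and the 10 clock genes, whose p-values are not used, are all dark. The 10 clock genes have a median of 0.53, while the medians of the other lists lie between -0.21 and 0.20.

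Neighbouring and overlapping genes were read to see what lies beside each clock gene. The nearest tested genes on either side and those overlapping a clock gene made 23 genes, of which 8 rose, 5 fell and 10 did not pass the test, none with an absolute log2 fold change over 1. Those past the threshold were 56.5% of the 23, near the 50.5% of all tested genes. Thra, the thyroid hormone receptor gene that overlaps the 3′ end of Nr1d1 on the opposite strand by 1075 bases, rose from 33.3 ± 0.781 to 40.2 ± 1.98 TPM (SD, n = 2), with a log2 fold change of 0.27 (SE 0.06) and a limma adjusted p = 0.023, which came to between 0.0524 and 0.115 with no filter on low values or with any 1 of the 4 libraries left out. Exons of both genes share 263 bases, or 8.55% of the exonic bases of Nr1d1 in the GENCODE M21 annotation of the same build. The libraries were stranded and aligned as such, and the part of the shared bases in either value was not tested. Sphk2 shares 539 exonic bases with Dbp on the opposite strand (18.0% of those of Dbp) and had 26.4 ± 2.02 and 26.9 ± 5.40 TPM (SD, n = 2), with a log2 fold change of 0.02 (95% confidence interval -0.38 to 0.41) whose sign turned without 2D replicate 1 or 3D replicate 1. Per3 lies wholly within Camta1 on the same strand with 0 exonic bases shared, and Camta1 had 4.70 ± 0.669 and 4.18 ± 0.0046 TPM (SD, n = 2; log2 fold change -0.13, limma adjusted p = 0.402). Bhlhe41 shares 1280 exonic bases (19.0% of its own) with Gm43909 on the opposite strand, an untested gene.

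The genes whose pattern over the 4 libraries was most like that of a clock gene were sought among 10906 tested genes with a mean of at least 5 TPM, by the Euclidean distance of log2(TPM + 1) centred on each gene's mean. For Nr1d1 they were Akr1c19, an aldo-keto reductase (distance 0.0418), Slc17a1, a sodium-phosphate transporter (0.111), and Pilra, an immunoglobulin-like receptor (0.155). Akr1c19 ran from 5.20 and 5.85 TPM in 2D to 42.1 and 38.4 TPM in 3D. For Arntl they were C1qtnf6 (0.0124), Sod2, the mitochondrial superoxide dismutase (0.0138), and the noncoding RNA Dancr (0.0141), all with small differences between the cultures. With 4 libraries in 2 groups such a distance mostly records a like difference between the cultures, and nothing is said of shared function or control.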

How the data were processed

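Poly(A) RNA of AML12 cells in 2D and 3D culture was sequenced in 2 libraries each. According to the study's methods, adapters and poor bases were removed by cutadapt 1.8.3 and Trimmomatic 0.36, HISAT2 2.0.5 placed the reads on GRCm38 with their strand taken into account, and StringTie 1.3.4 quantified genes on an Ensembl annotation. The deposited values are TPM per gene and library, which the authors scaled to the same total in each library, so read depth is not kept and no counting interval was possible. The table also holds the authors' own log2 fold changes and p-values from DESeq2, which were not used.

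Levels were transformed as log2(TPM + 1), genes with a mean of at least 1 TPM over the 4 libraries were kept, and culture was fitted in limma 3.58.1 (R 4.3.3; eBayes with trend and robust variance; two-sided; Benjamini-Hochberg over all tested genes; threshold 0.05). Fold changes on this scale understate those of genes with low levels. An exact permutation test of 2 against 2 libraries cannot go below 0.333, so none was run for single genes. The script was tested on simulated data. The alternatives changed the pseudocount (0.1 or 5), the filter, the scaling, the variance prior and the libraries, and added the replicate number as a block. Same-numbered libraries did not deviate together (r = -0.0549 over 14116 genes), so the numbers were not taken as pairs.

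The 10 clock genes, the gene lists and the tests were chosen with earlier results of these data known. Named were all 10, each tested gene of the list of other clock factors, and of each further list the 3 genes past the threshold with the largest change in each direction and the 2 most abundant genes. Also named were overlapping genes, adjacent genes past a log2 fold change of 1, the 3 genes nearest in pattern to Nr1d1 and Arntl, and leading and absent cell type markers. Promoter sequences came from RefSeq (GRCm38.p6) and exons from GENCODE M21, in which the positions of all 10 were the same as in the table. Values of some genes that this rule names are not reported here.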

Additional observations from a re-analysis of the deposited data

How the results depend on the processing

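Across the 13 alternatives each clock gene kept the sign of its difference, 118 of 129 values moved by less than the spread between replicates, 11 moved by more, 9 of them with another pseudocount, and 0 reversed. The log2 fold change of Nr1d1 ran from 2.52 to 2.76, and that of Bhlhe41 from 0.64 with a pseudocount of 5 to 1.26 with one of 0.1. The median of the 10 was 0.39 with a pseudocount of 5 and 0.67 among the 9 with a mean of at least 5 TPM, and 0.47 to 0.59 with 1 library left out. With all 4 libraries kept, 7 or 8 of the 10 had an adjusted p under 0.05, and fewer did without 3D replicate 1 or 3D replicate 2. Fewer of all tested genes passed in those fits too, so nothing is read from these counts of the 10. The counts of all genes that follow are out of 14116, except that with no filter, which is out of 31828. Among all genes 7122 passed, between 4720 and 5954 without 1 library, 6248 with the replicate number as a block, and 5977 with no filter.

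The replicate block moved 1 list by over 1.5 times: 3 of the serum and cAMP early genes passed under it, as with no filter and with a constant prior variance, in place of 6, and 3 to 5 did without 1 library. The other clock factors gave 2 of the 3 with a mean of at least 5 TPM in place of 5 of 7, and 3 to 5 without 1 library. Left-out libraries gave 0 to 2 kinases and ligases, 0 to 1 corepressor genes, 5 to 9 glucocorticoid response genes, 5 to 8 liver clock outputs and 5 to 9 neighbouring genes, with 5 neighbouring genes under no filter. Without 3D replicate 1 the counts were 3 other clock factors, 0 kinases and ligases, 1 corepressor gene, 5 glucocorticoid, 3 early and 5 neighbouring genes. Without 3D replicate 2 they were 3 other clock factors, 2 kinases and ligases and 5 neighbouring genes, without 2D replicate 1 there was 1 corepressor gene, and without 2D replicate 2 there were 3 early genes. In these fits the lone library of a culture is assumed to vary like the other culture. Of 489 values of the other 38 named genes 431 kept sign and side of the threshold, 46 lost the call and 1 gained it. The sign turned in 11 values with neither the main nor the alternative fit past the threshold, and in 0 with either past it. Why these values changed was not tested. A count-based test was not run because the table holds TPM. With 2 libraries per culture and no read depth, counting error at low levels is unknown.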
